A study of Drosophila melanogaster with 18 samples.

Results

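Larvae that lack the U1 gene 95Ca were compared directly with larvae that lack the U1 gene 95Cc, without passing through the WT. The comparison took the columns named 95Ca.del and 95Cc.del of the raw read count table, which are 6 of the 18 libraries and 2 of the 6 groups, with 3 libraries in each strain. Both strains carry a CRISPR/Cas9 deletion of a single U1 gene in homozygous form. They were made by injecting guides into nanos-Cas9 embryos and were then crossed with the WT for several generations, and the WT is an isogenic w1118 strain. RNA was taken from whole larvae of the third instar, described in the labels as total RNA with rRNA removed, and sequenced strand-specifically as paired reads. A note in the study's supplement instead calls the sequencing mRNA-seq. Each deletion is held as a single line, so that the deletion and the rest of that line's genome cannot be told apart. The mix of sexes and the age within the instar are not given in the sources used here. Nothing states that the replicates of a strain came from separate cultures, so that p-values measure only the spread between these libraries.

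U1 snRNA is the RNA part of the U1 snRNP, the particle that pairs with the start of an intron and opens the assembly of the spliceosome. It also protects nascent transcripts from early cleavage and polyadenylation. The Drosophila genome holds 5 U1 genes, named 21D, 82Eb, 95Ca, 95Cb and 95Cc after their cytological places, and strains that have lost 1 of them keep the other 4. In the last larval instar the steroid ecdysone, acting through a nuclear receptor and a cascade of early regulators, ends feeding, starts the making of salivary glue and prepares the cuticle for the puparium. Many larval genes of the gut, the fat body and the epidermis are therefore tied to the hour of the instar.

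The guides that bounded each deletion are shown because they define the 2 genotypes. They are written from the 5′ end to the 3′ end, with the 10 bases next to the PAM side in capitals.
95Ca upstream guide: ttacctcctaTCGACTCAGC
95Ca downstream guide: gcaaaatgttATGAACAACG
95Cc upstream guide: tctaggatatCGGTCATGAC
95Cc downstream guide: gcgcaagctaGCTCTGTTAG
Each guide has 20 bases, and the upstream and downstream guides hold 50% and 35% G or C for 95Ca and 45% and 55% for 95Cc. The guides were not mapped to the genome here. In dm6 coordinates, 95Ca (snRNA:U1:95Ca, FBgn0004185) spans 23859467 to 23859630 of 3R, minus strand, and 95Cc (snRNA:U1:95Cc, FBgn0004187) spans 23826334 to 23826497, plus strand. Both genes are 164 bp long. 95Ca is intergenic, 299 bp past the 3′ end of CG34355 and 531 bp from the 3′ end of Pli. 95Cc is inside an intron of CG34355 on the same strand, an intron of 8210 bp in 3 of the 4 annotated transcripts. The gene 95Cb lies in the same intron, 1372 bp from 95Cc.

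Total counts were 20117574, 20858245 and 12518047 in replicates 1, 2 and 3 of 95Ca.del, against 18204001, 16488259 and 15964130 in those of 95Cc.del. A count of 0 allows up to 3 counts, which is 0.144 to 0.24 CPM in the 95Ca.del libraries and 0.165 to 0.188 CPM in the 95Cc.del libraries. Such limits and the exact intervals cover counting error only. Values in CPM are a gene's counts scaled to 1e+06 counts of the library, so they compare a gene between libraries and not genes of different length with each other. Replicate 1 of both strains stood apart from the other 4 libraries. 7SKa, a small RNA that holds back an elongation factor of RNA polymerase, had 66.8, 8495 and 4655 CPM in 95Ca.del, against 66.9, 2436 and 3631 CPM in 95Cc.del, and is low in replicate 1 of each strain. In the WT it was low in replicate 2, with 53.8 CPM against 5331 and 4668 CPM in replicates 1 and 3. The library labelled 95Ca.del replicate 2 stood apart in another way. Genes of the mitochondrial genome summed to 25697, 3289 and 19345 CPM in 95Ca.del, against 27469, 23473 and 27534 CPM in 95Cc.del. The snoRNA and scaRNA genes summed to 529, 1479 and 411 CPM in 95Ca.del, against 467, 467 and 525 CPM in 95Cc.del. Of 40 markers of 8 larval tissues, all had counts in all 6 libraries.

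**Figure D1:**
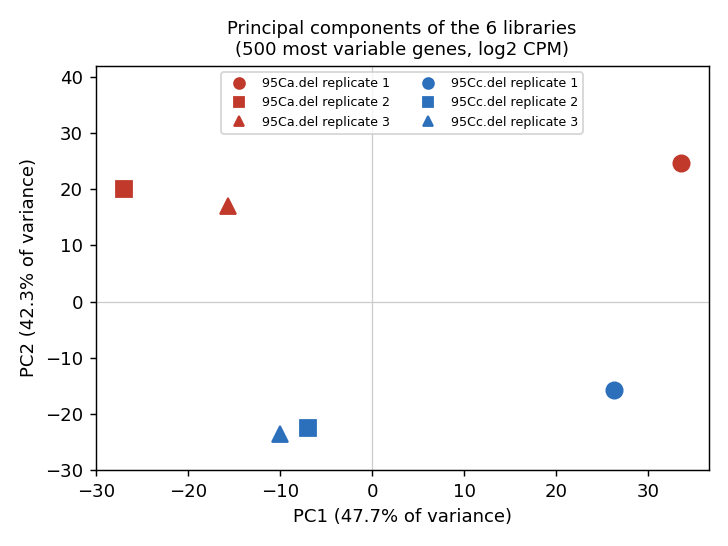
Principal components of the 6 libraries over the 500 most variable genes (log2 CPM), with 95Ca.del in red, 95Cc.del in blue and the replicate number as the symbol. PC1 holds 47.7% of the variance and sets replicate 1 of both strains (33.5 in 95Ca.del and 26.2 in 95Cc.del) apart from the others, which lie below 0, while PC2 holds 42.3% and separates the strains without overlap.

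The deleted genes had few counts in any library. 95Ca had 0, 5 and 0 counts in replicates 1, 2 and 3 of 95Ca.del, against 3, 2 and 0 counts in 95Cc.del. The 5 counts, 0.24 CPM, are in the library labelled 95Ca.del replicate 2, on a gene that its strain should lack. 95Cc had 1, 24 and 0 counts in 95Ca.del, against 0, 0 and 0 counts in 95Cc.del, and is at least 7.89-fold higher in 95Ca.del over the summed libraries. Of those 25 counts, 24 came from the library labelled 95Ca.del replicate 2, and the WT, which keeps the gene, had 4, 0 and 1. The 5 U1 genes together had 6, 39 and 1 counts in 95Ca.del, against 4, 8 and 4 counts in 95Cc.del. U1 genes are near-identical, their reads may have been shared between copies or discarded by the counting, and none passed the filter for the test. The main results are therefore given with and without that library.

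Of 12419 genes tested, 816 were DEGs between the strains (6.57%), with 249 higher in 95Ca.del (2.0%) and 567 lower in 95Ca.del (4.57%). DEGs were those that differed by more than 2-fold with adjusted p under 0.05, and every adjusted p given is from edgeR's quasi-likelihood test with Benjamini-Hochberg adjustment over all genes tested. Of the 816 DEGs, 69.5% were lower in 95Ca.del, while the median log2 fold change (95Ca.del over 95Cc.del) of all tested genes was 0.04. Fold changes were mostly moderate, with a median size of 1.42 on the log2 scale among DEGs. In all, 174 DEGs exceeded a 4-fold change, 37 of them higher and 137 of them lower in 95Ca.del. The 3 libraries of each strain did not overlap in CPM for any of the 816 DEGs, which was so for 32.7% of all tested genes. Larvae are bulk samples, in which fewer cells of a type and less RNA per cell cannot be told apart.

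Without the library labelled 95Ca.del replicate 2, 764 of 12594 genes were DEGs (6.07%), with 232 higher (1.84%) and 532 lower (4.22%) in 95Ca.del. Of the 816 DEGs, 615 were called again in the same direction, and 149 genes were called anew. Other libraries moved the count more. It was 1618 without 95Ca.del replicate 1, 347 without 95Ca.del replicate 3, and 325, 258 and 285 without replicates 1, 2 and 3 of 95Cc.del. Within replicates 2 and 3 of both strains, which leaves out the libraries low in 7SKa, 1218 genes were DEGs (9.88%), 368 higher (2.98%) and 850 lower (6.89%), and 680 of the 816 were among them. With the replicate number as a block, on the pairing described for the processing, 1068 were DEGs (8.6%), 291 higher (2.34%) and 777 lower (6.26%), and 796 of the 816 were among them. No DEG changed direction in the fits that leave out a library or in replicates 2 and 3. As the strains did not overlap in CPM for any DEG, that outcome was close to fixed in advance. In all 6 fits that leave out a single library, 228 DEGs were called, 65 higher and 163 lower in 95Ca.del.

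The genes furthest below 95Cc.del in 95Ca.del included several with no counts at all in 95Ca.del. CR13656 (FBgn0039307, 3R 25268661 to 25269965) is annotated as a pseudogene and had 0 counts in all 3 libraries of 95Ca.del, against 71, 44 and 49 counts in 95Cc.del, at least 57.7-fold lower. The long non-coding RNA lncRNA:CR42836 (FBgn0262025) had 0 counts in 95Ca.del, against 26, 27 and 18 counts in 95Cc.del, at least 25.0-fold lower. CG15253 (at least 23.9-fold lower) and CG15554 (at least 15.8-fold lower) were also at 0 in every library of 95Ca.del. In the WT, CR13656 had 0.735 to 3.10 CPM. The WT had only 0.0459 to 0.179 CPM of lncRNA:CR42836, 0.0459 to 0.252 of CG15253 and 0.0918 to 0.252 of CG15554. For these 3 genes no WT library exceeded the limit that a count of 0 allows, and 95Cc.del stood above the WT. For others a few counts remained in 95Ca.del. CG14205, at 0.0497, 0 and 0 CPM in 95Ca.del, against 3.57, 2.49 and 1.57 CPM in 95Cc.del, had a ratio of 138 (95% exact interval 24.4 to 5505). The trypsin lambdaTry, at 0, 0.0479 and 0 CPM in 95Ca.del, against 2.75, 1.52 and 2.76 CPM in 95Cc.del, had a ratio of 126 (22.1 to 5005). The cell adhesion gene NijB had a ratio of 77.1 (21.0 to 643) and lncRNA:CR44350 a ratio of 61.2 (10.6 to 2460), both lower in 95Ca.del. Tpl94D, which encodes a transition protein of sperm chromatin, had 0.944, 0.288 and 0.399 CPM in 95Ca.del, against 24.4, 24.3 and 20.7 CPM in 95Cc.del. Its log2 fold change was -5.31 (SE 0.33, adjusted p = 0.00173), and the 95Cc.del libraries lay near the WT range of 13.7 to 21.7 CPM.

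In the other direction CG17191 (FBgn0039473, 3R 27018608 to 27019751), of the gut lipase list, had 119, 99 and 63 counts in 95Ca.del, against 0, 0 and 0 counts in 95Cc.del, at least 88.7-fold higher. It had 1.84 to 3.36 CPM in the WT, below the 5.92, 4.75 and 5.03 CPM of 95Ca.del. The pseudogene CR31054 had 1.29, 1.01 and 1.28 CPM in 95Ca.del, against 0, 0 and 0.0626 CPM in 95Cc.del, a ratio of 59.7 (95% exact interval 10.3 to 2390), and no counts in any WT library. CG12592 had 9.35, 4.99 and 7.27 CPM in 95Ca.del, against 0.110, 0.788 and 0.438 CPM in 95Cc.del, with a log2 fold change of 4.06 (SE 0.53, adjusted p = 0.00591). Its 95Cc.del libraries lay far below the WT range of 10.4 to 11.7 CPM. The RYamide receptor gene RYa-R (2.89), the eggshell gene psd (2.94), CG10081 (3.20), lncRNA:CR46123 (5.42) and CG4151 (4.92) were also among the 10 largest log2 fold changes. Of the 6 fits that leave out a library, psd and CG4151 were called in 2, lncRNA:CR46123 in 3 and RYa-R in 4. CG4151 ranged from 0.252 to 6.92 CPM within the WT. CG10081 was called in all 6, with 65.7 to 134 CPM in the WT, above both strains. The 10 also held CG43112 (3.40, called in 4 of these fits) and the rRNA pseudogene 28SrRNA-Psi:CR45859 (called in 2). That gene had 272, 1020 and 1234 CPM in 95Ca.del, against 52.8, 42.2 and 132 CPM in 95Cc.del. All rRNA pseudogenes together had 1201, 2552 and 5155 CPM in 95Ca.del, against 616, 172 and 448 CPM in 95Cc.del, and the part of rRNA removal in the difference was not tested.

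**Figure D2:**
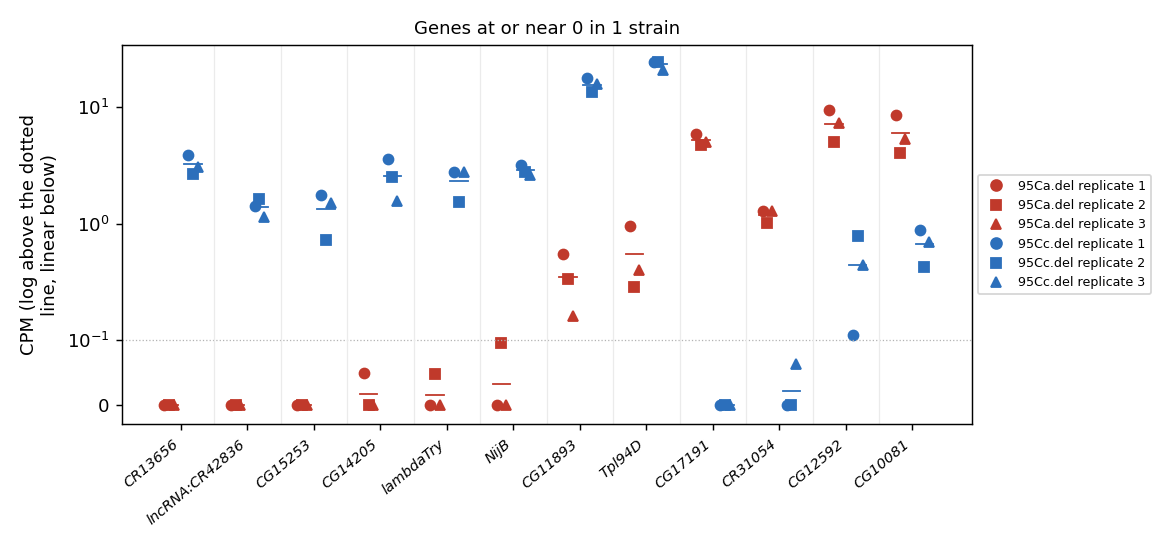
CPM in each library (symbol, replicate number) and the strain mean (line) for genes at or near 0 in 1 strain, with 95Ca.del in red left of 95Cc.del in blue, on an axis that is logarithmic above 0.1 CPM and linear below. The 8 genes on the left sit at or under 0.944 CPM in 95Ca.del and the 4 on the right at or under 0.879 CPM in 95Cc.del. As for every DEG, the strains do not overlap.

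Some genes of the ecdysone response were higher in 95Ca.del and none passed as a DEG in the other direction. Of 22 tested regulators and targets, 9 were DEGs and all 9 were higher in 95Ca.del, against 2.0% of all tested genes, and the median of the list was 0.89 against 0.04. The nuclear receptor gene Eip78C had 127, 138 and 129 CPM in 95Ca.del, against 33.5, 35.8 and 34.0 CPM in 95Cc.del (log2 fold change 2.02, SE 0.16, adjusted p = 0.00173). The libraries of a strain were close to each other and the strains were far apart, with the WT range of 54.0 to 75.7 CPM between them. Hr4, another nuclear receptor gene, had 157, 207 and 241 CPM in 95Ca.del, against 44.1, 65.7 and 71.8 CPM in 95Cc.del (1.82, SE 0.30, adjusted p = 0.0133). Replicate 1 was the lowest library of both strains for Hr4. Blimp-1, an ecdysone-inducible repressor of transcription, had 53.1, 53.8 and 63.4 CPM in 95Ca.del, against 16.3, 16.6 and 21.0 CPM in 95Cc.del (1.74, SE 0.20, adjusted p = 0.00384). The Broad-Complex gene br, whose zinc finger proteins direct the switch to metamorphosis, had 2042, 2288 and 2750 CPM in 95Ca.del, against 998, 1127 and 1231 CPM in 95Cc.del (1.16, SE 0.23, adjusted p = 0.0229). The strains did not overlap for br, as for every DEG.

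The ecdysone-induced genes of imaginal discs went the same way. ImpE1 had 202, 160.1 and 176 CPM in 95Ca.del, against 73.0, 68.2 and 65.0 CPM in 95Cc.del (1.46, SE 0.11, adjusted p = 0.00173). ImpE2, which encodes a secreted disc protein, had 398, 355 and 397 CPM in 95Ca.del, against 131, 128 and 123 CPM in 95Cc.del (1.67, SE 0.13, adjusted p = 0.00173). In both genes the levels within a strain differed by far less than the strains did. The 4 imaginal disc markers summed to 112 to 128 CPM in 95Ca.del and 79.0 to 88.3 CPM in 95Cc.del, without overlap, and 0 were DEGs. The part of the share of disc tissue in these differences was not tested. E23, an ABC transporter gene that dampens the ecdysone response (1.34), the cystathionine gamma-lyase gene Cth, also known as Eip55E (1.5), and ImpE3 (1.14) were the remaining DEGs of the list. For all 9, the mean of 95Ca.del was above the WT range and the mean of 95Cc.del was below it. The receptor genes EcR (log2 fold change 0.38) and usp (0.27) were not DEGs. Eip75B had 480.4, 680.5 and 747 CPM in 95Ca.del, against 303, 387 and 404 CPM in 95Cc.del, and missed the threshold (0.90, adjusted p = 0.0753). The prepupal regulator ftz-f1 had 21.7, 14.2 and 17.3 CPM in 95Ca.del, against 27.4, 34.8 and 30.2 CPM in 95Cc.del (-0.74, adjusted p = 0.0364), lower in 95Ca.del but short of the fold change threshold, as was the nuclear receptor gene Hr38 (-0.72, adjusted p = 0.0266). The list kept 9 DEGs without the library labelled 95Ca.del replicate 2 and had 10 in replicates 2 and 3. Leaving out any single library gave 5 to 11. It was 5 without 95Ca.del replicate 3, without 95Cc.del replicate 1 and without 95Cc.del replicate 2, and 6 without 95Cc.del replicate 3.

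Products of the late instar in the fat body, the salivary gland and the epidermis differed in both directions. Fbp1, the fat body receptor for larval serum proteins and a target of ecdysone, had 36808, 46159 and 31777 CPM in 95Ca.del, against 13938, 12095 and 11906 CPM in 95Cc.del (1.70, SE 0.27, adjusted p = 0.0123). It had the highest mean CPM of all DEGs higher in 95Ca.del, and every 95Ca.del library was more than 2-fold above every 95Cc.del library. Lsp1alpha, a larval serum protein gene of the same tissue, had 22666, 18474 and 16148 CPM in 95Ca.del, against 24471, 20860 and 19337 CPM in 95Cc.del, which overlap (-0.10, adjusted p = 0.808). Apoltp, which encodes a lipid transfer lipoprotein made in the fat body, was lower in 95Ca.del, with 102, 78.3 and 70.6 CPM in 95Ca.del, against 248, 197 and 191 CPM in 95Cc.del (-1.27, adjusted p = 0.00384). The 6 fat body markers summed to 81564 to 103500 CPM in 95Ca.del and 69336 to 81322 CPM in 95Cc.del, and Fbp1 was the only DEG among them, a call that was lost when any library of 95Cc.del was left out. The part of tissue share in these differences was not tested.

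Of the 10 glue genes tested, 3 were higher and 2 were lower in 95Ca.del, against 2.0% and 4.57% of all tested genes. Sgs8 had 1150, 1227 and 1219 CPM in 95Ca.del, against 525, 457 and 457 CPM in 95Cc.del (1.41, adjusted p = 0.00418). Sgs4 had 1714, 1666 and 1264 CPM in 95Ca.del, against 801, 699 and 531 CPM in 95Cc.del (1.29, adjusted p = 0.0125), and Sgs5bis had a log2 fold change of 1.46 (adjusted p = 0.00448). These are glue proteins that fix the puparium to its support, and the strains did not overlap in them, as for every DEG. Sgs3 had 8512, 11470 and 19898 CPM in 95Ca.del, against 5661, 8196 and 9502 CPM in 95Cc.del, and with that overlap it missed the test (0.86, adjusted p = 0.210). The 2 genes that fell were ng1 and ng2, salivary gland genes that are active before the glue genes. ng1 had 3.38, 3.40 and 7.11 CPM in 95Ca.del, against 21.9, 26.4 and 26.4 CPM in 95Cc.del (-2.37, SE 0.34, adjusted p = 0.00829). ng2 had 5.87, 5.42 and 8.31 CPM in 95Ca.del, against 17.2, 19.2 and 26.3 CPM in 95Cc.del (-1.62, SE 0.27, adjusted p = 0.0148). The WT had 4.13 to 5.29 CPM of ng1 and 3.82 to 6.71 CPM of ng2, so that for both genes 95Cc.del stood above the WT range. Leaving out a library gave 1 to 4 glue genes higher and 0 to 3 lower, with 1 and 0 without 95Cc.del replicate 2 and 2 and 1 without 95Cc.del replicate 3. The 4 salivary gland markers summed to 11702 to 23068 CPM in 95Ca.del and 7231 to 11043 CPM in 95Cc.del.

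The tyrosine hydroxylase gene ple and the dopa decarboxylase gene Ddc, both enzymes of dopamine synthesis that also serve cuticle tanning, were higher in 95Ca.del. ple had 739, 897 and 826 CPM in 95Ca.del, against 263, 257 and 252 CPM in 95Cc.del (1.77, SE 0.19, adjusted p = 0.00311). Ddc had 248, 243 and 200.4 CPM in 95Ca.del, against 108, 104 and 103 CPM in 95Cc.del (1.22, SE 0.15, adjusted p = 0.00471). Both were called in all 6 fits that leave out a library. They were the only DEGs among 15 nervous system genes, whose 5 defining markers summed to 291 to 326 CPM in 95Ca.del and 286 to 293 CPM in 95Cc.del. Of 12 ecdysteroid enzymes, only sad, a P450 gene of ecdysone synthesis, was a DEG. It had 64.0, 88.4 and 79.9 CPM in 95Ca.del, against 26.0, 25.3 and 28.7 CPM in 95Cc.del (1.64, SE 0.22, adjusted p = 0.00671), with a WT range of 23.3 to 76.9 CPM. None of 9 juvenile hormone genes was a DEG in edgeR's test.

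**Figure D3:**
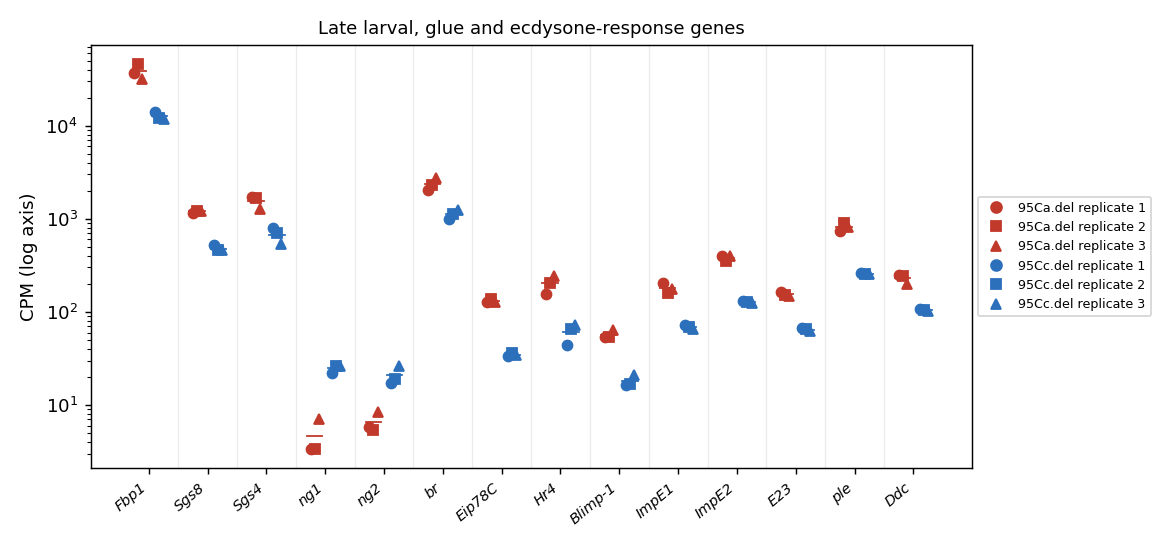
CPM on a log axis in each library (symbol, replicate number) with the strain mean (line) for 14 genes of the late instar, 95Ca.del in red left of 95Cc.del in blue. All but ng1 and ng2 are higher in 95Ca.del, for example Fbp1 with 31777 to 46159 CPM in 95Ca.del and 11906 to 13938 CPM in 95Cc.del. As for every DEG, the strains do not overlap.

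Most genes of the larval cuticle were not DEGs, and more of those called were lower in 95Ca.del. Of 42 tested Cpr genes, which encode chitin-binding cuticle proteins, 9 were lower and 4 were higher, against 4.57% and 2.0% of all tested genes. The summed level of the list was 2805, 4694 and 3476 CPM in 95Ca.del, against 2742, 2509 and 2649 CPM in 95Cc.del. Cpr47Ec had 60.4, 44.1 and 55.4 CPM in 95Ca.del, against 453, 406 and 423 CPM in 95Cc.del (-2.93, SE 0.14, adjusted p = 0.000525). Its WT range of 96.2 to 186 CPM lay between the strains. Cpr47Eg had 0.646, 1.92 and 1.44 CPM in 95Ca.del, against 31.0, 26.9 and 28.3 CPM in 95Cc.del (-4.31, SE 0.41, adjusted p = 0.00254). Cpr49Ac went the other way, with 2041, 3525 and 2368 CPM in 95Ca.del, against 1041, 944 and 970.1 CPM in 95Cc.del (1.54, SE 0.29, adjusted p = 0.0203). Among 23 tested larval and pupal cuticle genes of the Lcp and Ccp families, 6 were lower and 1 was higher, against the same 4.57% and 2.0%. The median of that list was -1.01. Lcp3 had 2740, 2677 and 3283 CPM in 95Ca.del, against 12121, 10718 and 10583 CPM in 95Cc.del (-1.85, SE 0.20, adjusted p = 0.00338). It had the highest mean CPM of the DEGs lower in 95Ca.del. Its close relative Lcp1 had 1874, 7064 and 7643 CPM in 95Ca.del, against 3985, 7611 and 7718 CPM in 95Cc.del, with replicate 1 low in both strains (-0.10, adjusted p = 0.927). Lcp65Ag1 had 2.24, 2.06 and 3.44 CPM in 95Ca.del, against 31.9, 26.7 and 28.3 CPM in 95Cc.del (-3.42, SE 0.23, adjusted p = 0.00173), and reads of its near-identical neighbours may be shared. In all 9 lower Cpr genes and all 6 lower Lcp and Ccp genes, the 95Cc.del mean was above the WT range, and the 95Ca.del mean was below it in 6 and 4 of them. Leaving out a library gave 6 to 15 lower Cpr genes, with the 15 without the library labelled 95Ca.del replicate 2. It gave 2 to 9 lower Lcp and Ccp genes, 9 without that library and 3 or fewer without 95Ca.del replicate 3 or any library of 95Cc.del. Without 95Ca.del replicate 3 or any library of 95Cc.del, 0 or 1 Cpr genes were higher. Of 12 tested Tweedle genes, 2 were lower, TwdlO (-3.81) and TwdlP (-2.95), against 4.57% of all tested genes. Without 95Cc.del replicate 2 or replicate 3, 0 were lower.

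Digestive enzymes of the midgut were lower in 95Ca.del in part. Of 27 tested Jonah and trypsin proteases, 7 were lower and 0 were higher, against 4.57% and 2.0% of all tested genes. The median was -0.63, or -1.37 without the library labelled 95Ca.del replicate 2 and -0.33 in replicates 2 and 3, and leaving out a library gave 4 to 8 lower, with the 4 without any library of 95Cc.del. The neighbouring trypsin genes lambdaTry, kappaTry and zetaTry lie between 11336840 and 11340132 on 2R. kappaTry had 0.199, 0.431 and 0.320 CPM in 95Ca.del, against 8.35, 3.03 and 5.70 CPM in 95Cc.del (-4.03, SE 0.50, adjusted p = 0.00517). zetaTry had 20.3, 14.3 and 11.4 CPM in 95Ca.del, against 64.2, 62.8 and 57.9 CPM in 95Cc.del (-1.94, SE 0.18, adjusted p = 0.00254). The WT had 12.9 to 18.6 CPM of kappaTry, above all libraries of both strains, and 32.0 to 39.5 CPM of zetaTry, between them. Jon65Aiv, the most abundant of the family, had 227, 2391 and 1216 CPM in 95Ca.del, against 717, 1234 and 1648 CPM in 95Cc.del, with replicate 1 lowest in each strain and no difference beyond the spread (0.24, adjusted p = 0.874). The 5 midgut markers summed to 304 to 3013 CPM in 95Ca.del and 974 to 2304 CPM in 95Cc.del, which overlap.

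Of 13 tested maltase and amylase genes, 3 were lower and 1 was higher, against 4.57% and 2.0% of all tested genes. The maltase gene Mal-A3 had 2.44, 5.51 and 2.80 CPM in 95Ca.del, against 53.5, 45.1 and 52.1 CPM in 95Cc.del (-3.67, SE 0.38, adjusted p = 0.00306). Its neighbour Mal-A6 had 97.9, 79.2 and 65.8 CPM in 95Ca.del, against 46.0, 39.1 and 35.5 CPM in 95Cc.del (1.09, SE 0.15, adjusted p = 0.00768). Both strains were below the WT for both genes, whose WT ranges were 121 to 166 CPM for Mal-A3 and 290.1 to 373 CPM for Mal-A6. Without the library labelled 95Ca.del replicate 2, 6 genes of the list were lower, and without 95Ca.del replicate 3 it was 2. Among 16 tested gut lipases, 4 were higher and 4 were lower, against 2.0% and 4.57% of all tested genes. Without 95Ca.del replicate 3 or any library of 95Cc.del, 1 or 2 lipases were higher and 2 were lower. The cluster of lipase genes at 3R 27.0 Mb, a window chosen after its values were seen, held both directions. There CG6296 had 15.5, 21.3 and 13.5 CPM in 95Ca.del, against 65.4, 56.1 and 61.8 CPM in 95Cc.del (-1.76, adjusted p = 0.00701). CG6271, close to it, had 3.28, 4.70 and 3.20 CPM in 95Ca.del, against 0.714, 0.849 and 1.13 CPM in 95Cc.del (2.15, adjusted p = 0.0138), and both strains were far below its WT range of 128 to 158 CPM. The chitinase gene Cht4 was the only DEG of 19 genes of chitin metabolism and the peritrophic matrix. It had 18.4, 19.9 and 13.9 CPM in 95Ca.del, against 81.8, 72.6 and 76.7 CPM in 95Cc.del (-2.05, SE 0.19, adjusted p = 0.00254).

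DEGs also lay close together elsewhere on 3R. Within the 100 kb of 3R that starts at 17100001, 10 of 17 tested genes were DEGs, 9 of them lower in 95Ca.del. The window was chosen after its values were seen, as were 13 others that held 5 or more DEGs. CG4053 had 2.88, 3.60 and 3.75 CPM in 95Ca.del, against 18.2, 15.9 and 16.5 CPM in 95Cc.del (-2.21, SE 0.21, adjusted p = 0.00254). CG17475 had 27.4, 22.4 and 20.9 CPM in 95Ca.del, against 95.2, 85.0 and 79.6 CPM in 95Cc.del (-1.80, SE 0.13, adjusted p = 0.00173). The mucin-related gene Mur89F, in the same window, was higher, with 102, 121 and 97.0 CPM in 95Ca.del, against 42, 33.2 and 33.4 CPM in 95Cc.del (1.66, SE 0.18, adjusted p = 0.00325).

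The ecdysteroid kinase-like genes were lower in 95Ca.del or not called. The family was taken after its values were seen, as the genes whose RefSeq synonyms have the form Dro5-6, and in the silkworm a member phosphorylates ecdysteroids into an inactive store. Of 54 such genes in the table, 46 were tested, 16 were lower (34.8% called, against 6.57% of all tested genes) and 0 were higher, and the median was -0.77. CG11893 (3R 25289889 to 25291366) had 0.547, 0.336 and 0.160 CPM in 95Ca.del, against 17.6, 13.5 and 15.6 CPM in 95Cc.del (-5.31, SE 0.31, adjusted p = 0.00148). Its WT range was 33.2 to 77.4 CPM, above both strains. CG6830, the most abundant of those named here, had 61.5, 33.9 and 38.3 CPM in 95Ca.del, against 153, 129 and 136 CPM in 95Cc.del (-1.59, SE 0.18, adjusted p = 0.00346). CG16898 had 3.13, 2.30 and 3.28 CPM in 95Ca.del, against 16.7, 14.9 and 11.8 CPM in 95Cc.del (-2.24, SE 0.19, adjusted p = 0.00211), and here the WT, with 3.10 to 5.45 CPM, was close to 95Ca.del. Of the 16 lower genes, 12 are on 3R and 9 of these lie in a cluster of 54.1 kb that begins 1.41 Mb from 95Ca and holds CR13656, CG11893, CG10553 (-2.33) and CG10562 (-3.65). The 95Ca.del mean was below the WT range in 14 of the 16. The 95Cc.del mean was above the WT range in 5 and inside it in 8. Without the library labelled 95Ca.del replicate 2, 13 of 49 tested members were lower, in replicates 2 and 3 it was 19, and leaving out a library gave 6 to 23, with the 6 without 95Cc.del replicate 2 and the 23 without 95Ca.del replicate 1.

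Enzymes of detoxification were called in both directions, more often lower in 95Ca.del. Of 76 tested cytochrome P450 genes, 16 were lower and 3 were higher, against 4.57% and 2.0% of all tested genes, with a median of -0.42. Cyp6w1 had 12.1, 6.47 and 5.35 CPM in 95Ca.del, against 82.7, 69.1 and 60.5 CPM in 95Cc.del (-3.08, SE 0.26, adjusted p = 0.00211). The 95Cc.del libraries were within the WT range of 50.2 to 111 CPM and the 95Ca.del libraries below it. In a row of Cyp6a genes on 2R, Cyp6a17 (-1.86), Cyp6a23 (-1.74), Cyp6a20 (-2.05), Cyp6a8 (-1.39) and Cyp6a9 (-1.2) were all lower. Cyp6d5 went the other way, with 306, 218 and 191 CPM in 95Ca.del, against 125, 111 and 104 CPM in 95Cc.del (1.14, SE 0.16, adjusted p = 0.00750), while the WT had 299 to 627 CPM. For 14 of the 16 lower P450 genes the 95Ca.del mean was below the WT range, and for 7 the 95Cc.del mean was above it. Leaving out a library gave 5 to 18 lower P450 genes, with the 5 without 95Ca.del replicate 3 or 95Cc.del replicate 3, and 10 and 8 without replicates 1 and 2 of 95Cc.del.

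Of 27 tested UDP-glycosyltransferase genes, whose enzymes add a sugar to their substrates, 8 were lower and 2 were higher, against 4.57% and 2.0% of all tested genes, and leaving out a library gave 5 to 11 lower, with the 5 without 95Cc.del replicate 2. Ugt35B1 had 1.79, 0.527 and 1.44 CPM in 95Ca.del, against 13.9, 11.8 and 12.8 CPM in 95Cc.del (-3.32, SE 0.35, adjusted p = 0.00306), and the WT, at 0.656 to 2.68 CPM, was at the level of 95Ca.del. Ugt37A2 had 2.29, 0.863 and 1.68 CPM in 95Ca.del, against 16.8, 12.2 and 14.2 CPM in 95Cc.del (-3.11, SE 0.29, adjusted p = 0.00254), and here the WT, at 23.8 to 55.5 CPM, was above both. Ugt36D1 was higher, with 100.2, 104 and 95.2 CPM in 95Ca.del, against 40.5, 34.9 and 38.0 CPM in 95Cc.del (1.49, SE 0.14, adjusted p = 0.00254). Of 33 tested glutathione S-transferase genes, 5 were lower and 2 were higher, against 4.57% and 2.0% of all tested genes, and without 95Ca.del replicate 3 or any library of 95Cc.del 1 was lower and 0 were higher. GstD7 had a log2 fold change of -3.02 (adjusted p = 0.0287) and GstD2 of -1.23 (adjusted p = 0.00615). GstD5, between them on 3R, had 1.59, 1.10 and 1.20 CPM in 95Ca.del, against 0.604, 0.546 and 0.501 CPM in 95Cc.del (1.30, adjusted p = 0.0344), a call that the block took away (adjusted p = 0.0581).

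**Figure D4:**
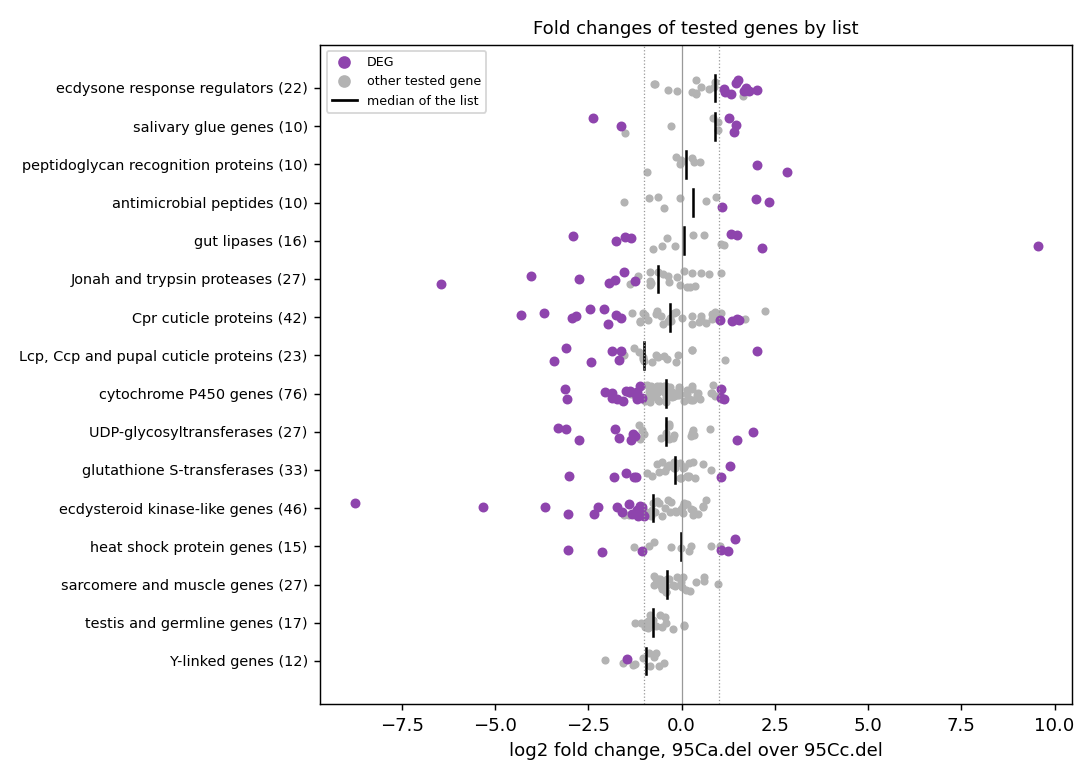
Log2 fold change (95Ca.del over 95Cc.del) of every tested gene in 16 lists, each with its number of tested genes, with DEGs in purple, other genes in grey, the median of the tested genes as a black line and the fold change threshold of 2 dotted. All 9 DEGs of the ecdysone response lie to the right and all 16 of the ecdysteroid kinase-like genes to the left, and the fitted values of genes at 0 in 1 strain, 9.55 for CG17191 and -8.76 for CR13656, depend on the prior count.

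Immune genes were few and went both ways. The peptidoglycan recognition gene PGRP-SB2 had 30.0, 27.3 and 31.3 CPM in 95Ca.del, against 4.12, 5.16 and 3.82 CPM in 95Cc.del (2.84, SE 0.18, adjusted p = 0.00173), and its WT range of 12.5 to 17.8 CPM lay between the strains. Its neighbour PGRP-SB1 had 4.13, 3.74 and 2.56 CPM in 95Ca.del, against 0.989, 0.970 and 0.752 CPM in 95Cc.del (2.02, SE 0.28, adjusted p = 0.00783). These were the DEGs among 10 tested members of the family, while 2.0% of all tested genes were higher. Of 10 tested antimicrobial peptide genes, 3 were higher, against 2.0% of all tested genes. They were the diptericin DptA (2.33), the drosomycin-like Drsl5 (2.0) and the attacin AttC (1.08). Both tested Bomanin genes were lower, against 4.57% of all tested genes. In both lists 0 genes were called without 95Ca.del replicate 3 or any library of 95Cc.del. BomS3 had 0.199, 0.192 and 0.0799 CPM in 95Ca.del, against 1.21, 1.39 and 0.752 CPM in 95Cc.del (-2.62, adjusted p = 0.0166), and the WT had 6.15 to 10.3 CPM. The stress peptide gene TotA had 337, 199.6 and 287 CPM in 95Ca.del, against 138, 126 and 127 CPM in 95Cc.del (1.14, SE 0.16, adjusted p = 0.00741). The call of TotA was lost when any library of 95Cc.del was left out. TotC, the other tested Turandot gene, went the opposite way (-1.03) and was not a DEG. None of 12 hemocyte genes was a DEG in edgeR's test, and the 5 hemocyte markers summed to 1031 to 1286 CPM in 95Ca.del and 1393 to 1590 CPM in 95Cc.del.

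Of 15 tested heat shock genes, 3 were higher and 3 were lower, against 2.0% and 4.57% of all tested genes. The small heat shock gene Hsp23 had 1324, 845 and 1121 CPM in 95Ca.del, against 504, 474 and 466 CPM in 95Cc.del (1.25, SE 0.16, adjusted p = 0.00517). Its neighbours Hsp67Bc (1.42) and Hsp67Ba (1.07) were higher too. The inducible Hsp70Aa had 0.348, 0.0479 and 0 CPM in 95Ca.del, against 0.989, 1.39 and 1.5 CPM in 95Cc.del (-3.05, adjusted p = 0.0387), and its reads are hard to tell from those of Hsp70Ab (-2.12, adjusted p = 0.0440). Without the library labelled 95Ca.del replicate 2, 3 heat shock genes were higher and 0 were lower, and Hsp70Ab was no longer called with the block (adjusted p = 0.0559).

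Several tissue lists held no DEG. None of 27 muscle genes was called, but their sum was 60469, 58025 and 60865 CPM in 95Ca.del, against 79987, 83708 and 85368 CPM in 95Cc.del, without overlap, and their median log2 fold change was -0.39. The WT sum of the muscle list was 37450 to 40476 CPM, below every library of both strains. None of 17 testis and germline genes was called either, with a sum of 204, 128 and 163 CPM in 95Ca.del, against 321, 306 and 274 CPM in 95Cc.del and a median of -0.77. With the block dj was called lower, in replicates 2 and 3 dj and can were, and without 95Ca.del replicate 1 it was 4 genes. The 12 tested Y-linked genes had a median of -0.95 and 1 DEG, the dynein heavy chain gene kl-5, with 4.27, 1.44 and 2.32 CPM in 95Ca.del, against 8.57, 7.34 and 7.14 CPM in 95Cc.del (-1.47, adjusted p = 0.0294). With the block, and also in replicates 2 and 3, 3 Y-linked genes were lower, without 95Ca.del replicate 1 it was 4, and without 95Ca.del replicate 3 or any library of 95Cc.del it was 0. The median was -1.63 in replicates 2 and 3. The roX RNAs of dosage compensation, which are made in males, were not DEGs. lncRNA:roX1 had 813, 347 and 563 CPM in 95Ca.del, against 1258, 1062 and 1031 CPM in 95Cc.del (-0.91, adjusted p = 0.0525). lncRNA:roX2 had 429, 96.9 and 338 CPM in 95Ca.del, against 739, 633 and 696 CPM in 95Cc.del, with adjusted p = 0.108, or 0.0327 and a DEG with the block. The share of males was not given, and its part in the other differences was not tested. The library labelled 95Ca.del replicate 2 was the lowest of the 6 for the Y-linked sum (11.7 CPM), roX1 and roX2.

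The machinery that U1 belongs to showed no DEG with all 6 libraries. None of 9 U1 snRNP and Sm protein genes, 11 SR protein and kinase genes, and 15 cleavage and polyadenylation factor genes was called, although all 11 SR and all 15 cleavage factor genes had a positive log2 fold change, with a median of 0.21 in both lists. snRNP-U1-70K, the U1-specific protein that binds the RNA's first stem, had 38.9, 80.3 and 81.6 CPM in 95Ca.del, against 31.6, 56.6 and 51.6 CPM in 95Cc.del, with replicate 1 the lowest in each strain (0.62, adjusted p = 0.338). snRNP-U1-C, another U1-specific protein gene, had 5.12, 19.6 and 18.5 CPM in 95Ca.del, against 3.30, 7.95 and 8.46 CPM in 95Cc.del (1.24, adjusted p = 0.225), again with replicate 1 the lowest, and it was called higher with the block, in replicates 2 and 3 and without 95Ca.del replicate 1. The splicing kinase gene Doa had 265, 324 and 295 CPM in 95Ca.del, against 177, 205 and 190.2 CPM in 95Cc.del, without overlap and just short of the adjusted p threshold (0.72, adjusted p = 0.0537). Of 88 tested snoRNA and scaRNA genes, 2 were higher and 1 was lower (3.41% called, against 6.57% of all tested genes). Without the library labelled 95Ca.del replicate 2 it was 0 and 1, while 14 were higher without 95Ca.del replicate 1. None of 89 cytosolic ribosomal protein genes and none of 80 nuclear genes of oxidative phosphorylation was called in edgeR's test, with medians of 0.19 and -0.35. Without the library labelled 95Ca.del replicate 2 the ribosomal median was -0.13, and in replicates 2 and 3 there were 4 higher and 1 lower ribosomal genes. Of the oxidative phosphorylation genes, 5 were lower with the block, 4 in replicates 2 and 3, and 7 without 95Ca.del replicate 1.

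Genes next to the deletions differed little. Pli, the Pellino gene of the Toll pathway, 531 bp from 95Ca, had 160.4, 117 and 119 CPM in 95Ca.del, against 97.8, 88.5 and 76.2 CPM in 95Cc.del. That is a log2 fold change of 0.67 (SE 0.13, adjusted p = 0.0194), past the adjusted p and short of the fold change of a DEG, with 119 to 161 CPM in the WT. CG34355, whose intron holds 95Cc, had 22.5, 13.4 and 18.1 CPM in 95Ca.del, against 13.1, 12.7 and 13.4 CPM in 95Cc.del (0.52, SE 0.17, adjusted p = 0.0865). eIF4G2 (-0.20, adjusted p = 0.343) and CG33111 (0.25, adjusted p = 0.353), the other tested genes within 20 kb, did not differ beyond the spread.

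Arm 3R, which holds both deletions, had the largest share of DEGs. Of its tested genes 8.77% were called, against 6.03% on 2L, 6.04% on 2R, 6.39% on 3L, 4.98% on X and 1.10% on 4. By distance from 95Ca, the share was 7.93% more than 10 Mb to the left, 7.29% at 10 to 5 Mb, 9.86% at 5 to 2 Mb and 12.6% within 2 Mb to the left. To the right it was 9.40% within 2 Mb, 11.4% at 2 to 4 Mb, 7.56% at 4 to 6 Mb and 9.42% at 6 to 10 Mb. To the left the shares rose toward 95Ca from the bin at 10 to 5 Mb on, and to the right they showed no steady order. Without the library labelled 95Ca.del replicate 2 they were 7.51%, 7.96%, 9.41% and 10.3% from beyond 10 Mb to within 2 Mb on the left. Going outward on the right they were then 7.62%, 9.09%, 6.86% and 10.6%. In replicates 2 and 3 the bins next to 95Ca had 14.5% to the left and 11.1% to the right. The share there was 11.2% beyond 10 Mb to the left and 15.9% at 2 to 4 Mb to the right. Of the 10 genes with the smallest and the 10 with the largest log2 fold change, 6 and 5 are on 3R. They are spread over the arm. Of the lower genes, lncRNA:CR42836 is at -3.72 Mb from 95Ca, lncRNA:CR44350 at -1.03, Tpl94D at -0.892, CR13656 at 1.41, CG11893 at 1.43 and CG15554 at 7.27 Mb. Of the higher genes, lncRNA:CR46123 is at -22.5 Mb, CG12592 at -13.5, CG17191 at 3.16, RYa-R at 3.17 and CR31054 at 4.10 Mb. The part of sequence differences between the lines, other than the deletions, was not tested.

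**Figure D5:**
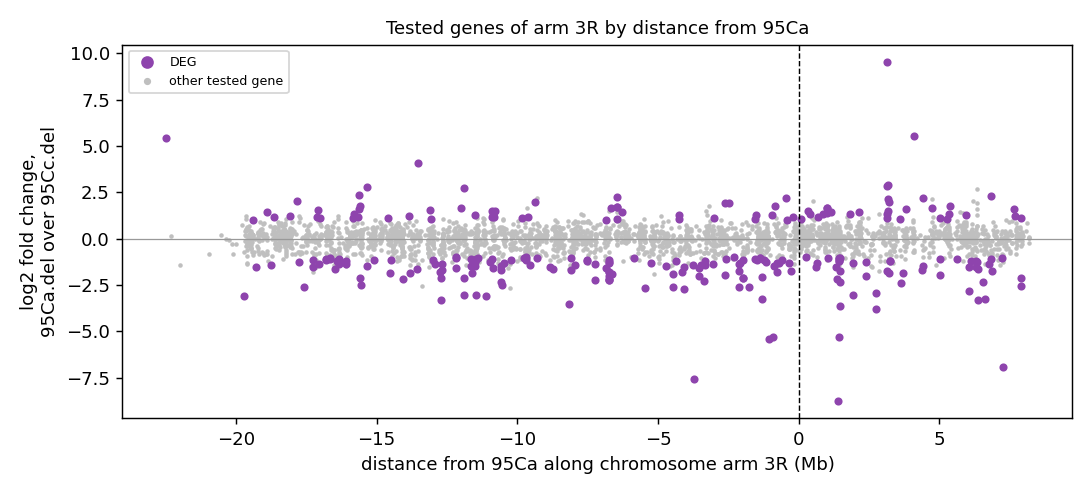
Log2 fold change (95Ca.del over 95Cc.del) of tested genes on arm 3R by distance from 95Ca in Mb, with DEGs in purple, other tested genes in grey and 95Ca at the dashed line. DEGs lie along the whole arm, with 7.29% to 12.6% of tested genes called in each of 8 bins of distance, and the values of genes at 0 in 1 strain depend on the prior count.

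The WT and the other strains were set beside the DEGs as a description, with no test. The counts cover DEGs only, and the shares over all tested genes were not taken. DEGs were chosen because the 2 strains differ, which favours a WT median between them and a strain at an extreme. The WT median was between the means of the 2 strains for 203 of the 249 genes higher in 95Ca.del and for 390 of the 567 lower. It was above both means for 26 and 116, and below both for 20 and 61. Against all 15 other libraries of the series, the 3 libraries of 95Cc.del were above every one for 187 of the 816 DEGs and below every one for 127. The 3 libraries of 95Ca.del were above every other library for 2 DEGs and below every other for 11. The cathepsin gene CtsK2 is one of those with 95Cc.del above all other libraries, with 232, 182 and 197 CPM in 95Ca.del, against 830.2, 649.6 and 729 CPM in 95Cc.del (-1.78, SE 0.14, adjusted p = 0.00173) and 189.9 to 256 CPM in the WT.

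Of 11511 tested protein-coding genes, 757 were DEGs (6.58%), of 685 non-coding RNA genes 46 (6.72%), and of 63 pseudogenes 8 (12.7%). The share over all tested genes was 6.57%. Among protein-coding genes, 9.37% of those without introns, 7.20% of those with 1 to 2 introns, 5.91% of those with 3 to 5 and 4.57% of those with 6 or more were called. Expression moved with intron number, since the median of these groups was 6.39, 11.4, 23.7 and 49.2 CPM, and its part in the shares was not tested. Genes lower in 95Ca.del were 6.47% of those without introns and 2.59% of those with 6 or more, and genes higher in 95Ca.del were 2.90% and 1.97%.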

How the data were processed

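Raw counts per gene were deposited by the authors, who trimmed reads with Trimmomatic (0.39, with cutadapt 1.15 also named in the submitters' processing notes), aligned them with HISAT2 against dm6 and used featureCounts for the counting. Strand and multi-mapping settings are not given in the sources used here, so reads of near-identical, overlapping or antisense genes are uncertain. The table holds 17562 genes, of which 17479 matched a symbol in the Ensembl annotation (99.5%). Libraries were grouped by their titles, and no pair of libraries was a duplicate. Library totals lay between 12518047 and 20858245.

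The 2 strains were fitted with edgeR 4.0.16 in R 4.3.3, after filterByExpr (minimum count 10, minimum total 15) and TMM scaling. Its quasi-likelihood fit (glmQLFit) had the strain as its only term, and p-values of glmQLFTest were adjusted after Benjamini and Hochberg. The standard error is the log2 fold change divided by the square root of F. Thresholds were those of the study, which used DESeq2. On simulated counts of 12387 genes for this comparison, 99 of 100 genes changed by 2 and 100 of 100 changed by 3 on the log2 scale were recovered, with 6 false calls. The changed genes were drawn from the better expressed ones, and replicate 1 was not set apart as it is in the data. The recovery of smaller changes and of weakly expressed genes was therefore not measured. A count of 0 was read as up to 3 counts, and intervals are exact at 95%.

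Members and lists were chosen with earlier results of these data known. Named genes are the U1 genes, the 10 largest and 10 smallest log2 fold changes among genes called with and without the library labelled 95Ca.del replicate 2, the 6 most abundant DEGs in each direction, genes at 0 in a strain, neighbours within 20 kb of the deletions, and per list up to 4 called and the 2 most abundant members. The ecdysteroid kinase-like family, the windows, and genes given only to illustrate a list were chosen after their values were seen.

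Deviations of same-numbered replicates over 12419 genes had correlations of 0.67, 0.30 and 0.38 for replicates 1, 2 and 3. Replicate 2 of 95Ca.del with replicate 3 of 95Cc.del gave 0.35, and replicate 3 of 95Ca.del with replicate 2 of 95Cc.del gave 0.23. The check thus sets replicate 1 apart and does not pair replicates 2 and 3 by number. The block took same-numbered replicates as paired, which the labels do not state. There were 17 settings with the main fit among them, and the others included the replicate number as a block, DESeq2 1.42.0, other scaling factors and filters, and the removal of libraries.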

Additional observations from a re-analysis of the deposited data

Results flagged for a closer look

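The gene 95Ca had 5 counts in the library labelled 95Ca.del replicate 2, while the strain should lack the gene and the other 2 libraries of 95Ca.del had 0. The same library had 24 counts of 95Cc and 39 counts over the 5 U1 genes, against 4 to 8 in the libraries of 95Cc.del. The next highest sums of the series were 25 in WT replicate 1 and 19 in 95Cb.del replicate 1. Whether the counts of 95Ca in 95Ca.del replicate 2 are reads of other U1 copies was not tested.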

How the results depend on the processing

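The number of DEGs stayed within 1.5 times of 816 with DESeq2 (1098), RLE factors (821), library totals (655), no filter (801), 1 CPM in 3 libraries (792), all 18 libraries (790), replicates 2 and 3 (1218), and without the library labelled 95Ca.del replicate 2 (764). With adjusted p alone it was 1524, with 607 higher and 917 lower in 95Ca.del. With replicates 1 and 3 of both strains it was 175 (36 higher, 139 lower). With replicates 1 and 2, edgeR called 0 genes (0 higher, 0 lower), with 1770 at an unadjusted p under 0.05. Leaving out 1 library gave 258 to 1618 DEGs, 69 to 452 higher and 189 to 1166 lower. With the replicate number as a block, on the pairing described for the processing, 1068 genes were DEGs (291 higher, 777 lower). Of 95 named calls, the block kept 93 and lost Hsp70Ab and GstD5, and it added TwdlX (adjusted p = 0.0268) and lncRNA:roX2. DESeq2 and RLE factors kept 95, library totals 86, no filter 90, all 18 libraries 83, replicates 2 and 3 87, replicates 1 and 3 35, and replicates 1 and 2 0. Leaving out replicates 1, 2 and 3 of 95Ca.del kept 93, 86 and 57, and of 95Cc.del 53, 42 and 48. No named call changed direction in any setting, which was close to fixed in advance, since the strains did not overlap in CPM for any DEG. The library of 12518047 counts limits genes under about 0.24 CPM.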
